A study of Mus musculus with 7 samples.

Results

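Collagens, laminins and the other structural proteins of the extracellular matrix were followed in the mouse colon after repeated TNBS enemas (trinitrobenzene sulphonic acid, a hapten that provokes colitis). The members were all genes of the array whose platform symbol is that of a collagen chain, a laminin chain, a fibrillin or a fibulin, together with Sparc, Fn1, Eln, Dcn, Bgn, Lum, Nid1 and Nid2. This gave 51 of the 8251 genes on the array, read by 74 probe sets. They were sorted by role into 8 fibrillar collagens, 18 basement membrane genes, 16 other collagens, 4 elastic fibre and microfibril genes, and 5 adhesive glycoproteins and small proteoglycans.

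All mice were female CD-1 outbred animals, 10 to 12 weeks old at the start, and all received 6 enemas. TNBS was given in ethanol, and RNA was pooled from 6 animals 3 days after the last enema (week 6), 4 animals at 2 weeks (week 8), 5 at 4 weeks (week 10) and 4 at 6 weeks (week 12). For week 6 saline, 5 animals were pooled 3 days after their saline enemas and the RNA was hybridised on 2 arrays. For later saline, 4 animals were pooled, 2 from 2 weeks and 2 from 4 weeks. Each group was thus a single pool, no ethanol group without TNBS was analysed here, and the week 12 animals lacked an age-matched control. Tissue was taken 4 ± 0.5 cm from the anus.

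Matrix proteins form the scaffold of the gut wall. Fibrillar collagens are made mainly by fibroblasts and smooth muscle cells and give the submucosa its tensile strength. Basement membranes are thin sheets of type IV collagen networks and laminin heterotrimers under the epithelium and around vessels, muscle cells and nerves. Small leucine-rich proteoglycans such as decorin, lumican and biglycan bind collagen fibrils and influence their diameter. In chronic colitis, excess deposition of such proteins in the bowel wall is known as fibrosis.

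Of the 51 members, 28 reached a signal of 100 in at least 1 pool and were compared. They comprised 5 fibrillar collagens, 9 basement membrane genes, 6 other collagens, 3 elastic fibre and microfibril genes, and all 5 adhesive glycoproteins and small proteoglycans. Of the 23 members that did not, 16 lay under 50, the floor used here, on all 7 arrays. Among them were the cartilage chains Col2a1, Col11a1 and Col11a2, the basement membrane chains Col4a3, Col4a4, Col4a5 and Lama1, the nidogens Nid1 and Nid2, which link laminin to type IV collagen, and the fibrillin Fbn2. The remaining 7 were Col7a1, Col9a1, Col14a1, Col15a1, Col26a1, Lama2 and Lamb2. Of the 28 compared members, Lamb1 and Col9a3 reached 100 only in a TNBS pool and Col9a2 and Col8a1 only in a saline pool.

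The array signals were on a common scale, with a median of 51.8 to 61.2 per array. Markers of colon epithelium were present (13 of 14 on the array reached 100), all 8 smooth muscle markers did, and none of 10 skeletal muscle markers did. Repeat arrays of week 6 saline gave a log2 difference with an SD of 0.29 over 4314 genes and 0.27 over the 28 members, which is the only replicate error in the series and is technical. Of the members 14 were above 0 and 14 below in that repeat (48.8% and 50.3% of genes), none was at least 1.5-fold higher (2.69%) and Lamc1 was at least 1.5-fold lower (2.64%). Beta-actin signal near the 3' end over that near the 5' end, which depends on RNA quality, came to 1.14 to 1.24 on all week 6 arrays and to 0.799 to 0.8185 on all later ones, with TNBS and saline alike. In whole tissue, fewer cells of a type and less RNA per cell cannot be told apart.

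Promoter sequences from RefSeq (build GRCm38.p6) were held for 32 of the 51 members and 18 of the 28 compared ones. The 250 bases upstream of the annotated start are shown for Sparc, Col3a1 and Col6a3, which were among the members higher 3 days after TNBS. Capitals mark the TATAAA motif, or else the CCAAT motif, on either strand.
Sparc, chr11:55420081-55420330, minus strand: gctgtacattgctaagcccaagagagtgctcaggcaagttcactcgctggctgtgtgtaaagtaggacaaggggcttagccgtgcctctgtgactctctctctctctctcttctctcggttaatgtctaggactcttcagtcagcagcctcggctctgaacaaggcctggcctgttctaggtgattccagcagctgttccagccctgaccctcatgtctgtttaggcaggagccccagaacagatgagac
Col3a1, chr1:45311288-45311537, plus strand: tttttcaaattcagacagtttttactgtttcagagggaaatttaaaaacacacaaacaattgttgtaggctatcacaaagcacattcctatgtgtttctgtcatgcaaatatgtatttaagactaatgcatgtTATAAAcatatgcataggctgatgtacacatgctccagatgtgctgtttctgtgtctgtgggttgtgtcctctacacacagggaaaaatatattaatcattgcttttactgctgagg
Col6a3, chr1:90843972-90844221, minus strand: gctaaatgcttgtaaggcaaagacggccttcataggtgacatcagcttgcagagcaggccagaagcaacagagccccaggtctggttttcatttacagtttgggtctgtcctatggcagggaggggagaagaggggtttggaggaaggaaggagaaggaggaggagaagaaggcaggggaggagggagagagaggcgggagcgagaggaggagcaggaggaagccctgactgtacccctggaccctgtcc
Of these only the Col3a1 window held TATAAA, read on the other strand as TTTATA, which 12.4% of all 32851 promoter windows of this length held and 5 of 37 windows of members did. None of the 3 held CCAAT, read on the other strand as ATTGG, against 33.8% of all windows and 11 of 37 windows of members. GGGCGG, read on the other strand as CCGCCC and found in 32.7% of all windows and 18 of 37 of members, was in none of the 3 either. A match is only a stretch of letters, not a site shown to be bound. The type IV chains Col4a1 and Col4a2 lie head to head on chromosome 8, on opposite strands, with 78 bases shared between their 300-base windows.

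The first comparison asks how matrix transcripts differed 3 days after the last enema. In the week 6 TNBS pool the members were higher as a group than in the week 6 saline pool: 24 of 28 lay above 0, with a median log2 difference of 0.25, against 47.3% of all 4314 genes and a median of -0.02. At least 1.5-fold higher were 7 members (Col5a2, Lama3, Sparc, Col4a1, Lum, Col1a1 and Col6a3), or 7 of 28 where 7.56% of all genes were, and Fbln1 alone was at least 1.5-fold lower, where 5.93% of all genes were. Col5a2 and Lama3 were at least 2-fold higher (2.55% of genes) and no member was 2-fold lower (0.997%). The 4 members below 0, where 52.6% of genes lay, were Fbln1, Col6a1, Col1a2 and Col6a2. Of the 24 members that averaged at least 100 in saline, 20 lay above 0, with a median of 0.28. There was 1 pool on each side, so these differences have no test.

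Among the fibrillar collagens the median log2 difference at week 6 was 0.54. Col5a2, a chain of type V collagen, which sits inside type I fibrils and limits their width, read 263 and 225 in week 6 saline and 563 in week 6 TNBS. It read 208 in the later saline pool and 398, 296 and 225 in the TNBS pools of weeks 8, 10 and 12. Col5a2 was thus 2.31-fold higher at week 6, 1.91-fold at week 8, 1.42-fold at week 10 and 1.08-fold at week 12, and the week 12 pool lay among the saline arrays.

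Col1a1, the main chain of type I collagen, read 498 and 469 in week 6 saline and 820.2 in week 6 TNBS. It read 349 in later saline, then 523, 434 and 283 at weeks 8, 10 and 12. It was 1.70-fold higher at week 6, with a log2 difference of 0.58 at week 8, while at week 12 the TNBS pool was the lowest of all 7 arrays. A second Col1a1 probe set gave log2 differences of 1.03, 0.74, 0.06 and -0.16 at weeks 6, 8, 10 and 12, beside 0.76, 0.58, 0.31 and -0.30 on the first.

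Col3a1, whose homotrimer is the pliable fibrillar collagen of early scars and vessel walls, read 687 and 669 in week 6 saline and 988 in week 6 TNBS. Its later signals were 558 in saline and 930.4, 532 and 525.5 at weeks 8, 10 and 12. The TNBS pools of weeks 6 and 8 lay above all saline arrays and those of weeks 10 and 12 below them. The differences were 1.46-fold at week 6 and 1.67-fold at week 8. Against the week 6 saline pool the week 8 log2 difference was 0.46, under 1.5-fold. The brighter of its other probe sets gave log2 differences of 0.95, 0.67, -0.29 and -0.82 in the order of the weeks.

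Col1a2 encodes the partner chain of Col1a1 in type I collagen, and its probe sets disagreed. The brighter one read 482 and 480.3 in week 6 saline and 453 in week 6 TNBS, and 329, 270.3, 261 and 281 in later saline and at weeks 8, 10 and 12. The other read 324 and 335, then 597, and 241, 284, 187 and 153. The log2 difference at week 6 was thus -0.09 on one and 0.86 on the other, and the week 12 differences were -0.23 and -0.66. Which of them follows the transcript was not tested.

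Col5a1 read 237 and 262 in week 6 saline and 334.5 in week 6 TNBS, a 1.34-fold difference, then 235.5 in later saline and 224, 197 and 233 at weeks 8, 10 and 12. A dimmer Col5a1 probe set had a log2 difference of 0.89 at week 6, beside 0.42 on the brighter. Of the 9 fibrillar probe sets that reached 100 on some array, 8 lay above 0 at week 6 and 6 of them by at least 1.5-fold. At week 8, 6 of the 9 lay above 0, at week 10 there were 3, and at week 12 there was 1.

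**Figure D1:**
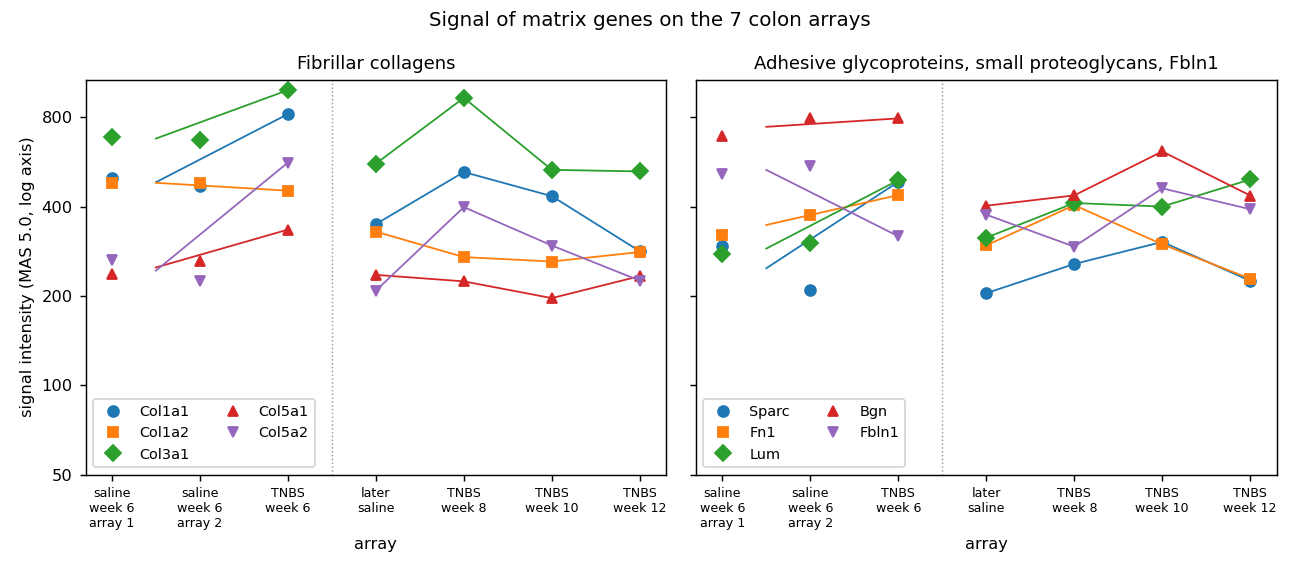
Signal intensity (log axis) on each of the 7 arrays for the 5 fibrillar collagens (left) and for Sparc, Fn1, Lum, Bgn and Fbln1 (right). Points are single arrays, lines join each saline pool to the TNBS pools compared with it and start at the geometric mean of both week 6 saline arrays, and the dotted line parts week 6 from the later arrays; Col5a2 goes from 263 and 225 in week 6 saline to 563 in week 6 TNBS and is back at 225 at week 12.

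**Figure D2:**
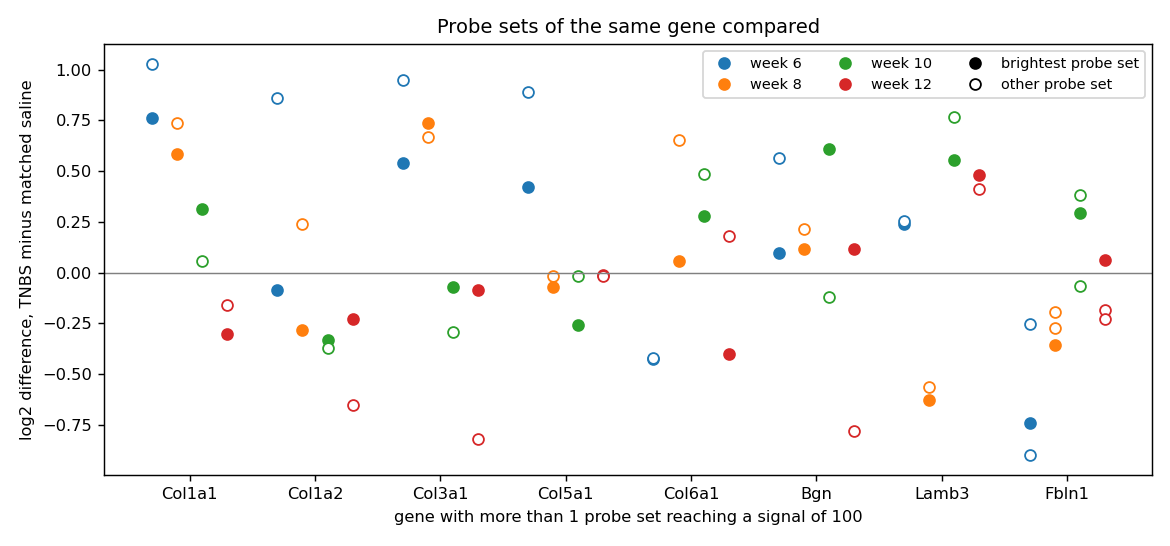
Log2 difference between each TNBS pool and its matched saline pool (vertical axis) for 8 genes with more than 1 probe set that reached a signal of 100 (horizontal axis). Filled points are the brightest probe set and open points the others, coloured by week; for Col1a2 the week 6 difference is -0.09 on the brightest and 0.86 on the other, while the Lamb3 pair stays close at every week.

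Adhesive glycoproteins and small proteoglycans were higher at week 6 (median 0.52), week 8 (0.33) and week 10 (0.35), with all 5 above 0 at each of these weeks. With quantile normalization 4 of 5 lay above 0 at weeks 8 and 10, and against the week 6 saline pool 4 and 3 of 5 did, with medians of 0.05 and 0.04. Lumican (Lum) read 276 and 302 in week 6 saline, 491 in week 6 TNBS, 314 in later saline and 411, 400.1 and 494 at weeks 8, 10 and 12. All 4 TNBS pools lay above all 3 saline arrays, by 1.70-fold, 1.31-fold, 1.27-fold and 1.57-fold over the matched pool. Lum was the 1 member of 28 with that pattern, which 4.96% of all genes showed, and no member lay below all saline arrays in all 4 pools, as 6.12% of genes did.

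Sparc, a secreted collagen-binding glycoprotein of remodelling tissue, read 294 and 209 in week 6 saline and 485 in week 6 TNBS. It read 204 in later saline and 256, 304 and 225 at weeks 8, 10 and 12. The differences were 1.95-fold at week 6 and 1.49-fold at week 10, but the saline arrays of week 6 themselves differed by -0.49 on the log2 scale. Only the week 6 and week 10 TNBS pools were above all saline arrays.

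Decorin (Dcn) was the brightest member, with 1959 and 1688 in week 6 saline, 2615 in week 6 TNBS, 1699.8 in later saline and 1837.5, 1874 and 2045 at weeks 8, 10 and 12. It was 1.44-fold higher at week 6 and at most 1.20-fold higher later. Fibronectin (Fn1), an adhesive protein of provisional matrix, read 321.5 and 374 in week 6 saline and 437 in week 6 TNBS. Its later values were 296 in saline and 404.5, 298.5 and 228.5 at weeks 8, 10 and 12, which put it 1.37-fold higher at week 8, with a log2 difference of -0.37 at week 12.

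Biglycan (Bgn), a proteoglycan that binds type I collagen, differed more between the saline pools than between TNBS and saline on its brighter probe set. It read 693 and 797 in week 6 saline but 403 in later saline, a 1.84-fold difference without TNBS. The TNBS pools read 793 at week 6 and 436, 614 and 436 later. Bgn was 1.52-fold higher than later saline at week 10, yet its log2 difference from the week 6 saline pool was -0.28. The dimmer probe set read 129.6 and 167 in week 6 saline and 159 in later saline, with log2 differences of 0.56, 0.22, -0.12 and -0.78 in the order of the weeks.

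Basement membrane genes lay above 0 at week 6 in 9 of 9, from Lamc1 at 0.01 to Lama3 at 1.13 with a median of 0.24, and were mostly lower at week 8 (7 of 9 below 0, median -0.32) and week 12 (7 of 9, median -0.45). At week 10 the median was -0.12, but 0.08 when all arrays were given equal medians. With equal medians 7 of 8 members lay above 0 at week 6. Without the first week 6 saline array 8 of 9 did, with a median of 0.41, and without the second 7 of 9 did, with a median of 0.25. Lamb1 reached 100 only in the week 6 TNBS pool, so the filter fixed its place above 0 at week 6.

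Col4a1, a chain of the type IV network common to all basement membranes, read 547 and 543 in week 6 saline and 995 in week 6 TNBS. It read 621 in later saline and 819, 733 and 460.1 at weeks 8, 10 and 12. It was 1.82-fold higher at week 6 and 1.35-fold lower at week 12. Its partner chain Col4a2, named for the pairing after the values were seen, read 445 and 463 in week 6 saline and 505 in week 6 TNBS. The later Col4a2 readings were 339 in saline and 313, 312 and 249 at weeks 8, 10 and 12. At week 6 the log2 difference was 0.87 for Col4a1 and 0.15 for Col4a2, and the difference between these chains was not tested.

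Col18a1, a basement membrane collagen from which endostatin is cleaved, read 178 and 256 in week 6 saline, 240.3 in week 6 TNBS, 135.5 in later saline and 192, 123 and 82.8 at weeks 8, 10 and 12. It was 1.64-fold lower at week 12 on this probe set, and its other 4 probe sets lay under 50 on all arrays. The later saline pool was itself 1.58-fold below the week 6 saline pool.

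The laminin alpha 3 chain (Lama3), which with beta 3 and gamma 2 forms the laminin 332 of epithelial adhesion, had the widest range of differences among the 28 members. It read 153 and 159 in week 6 saline, 341 in week 6 TNBS, 152 in later saline, and 70.4, 159 and 224 at weeks 8, 10 and 12. It was 2.19-fold higher at week 6, 2.16-fold lower at week 8 and 1.47-fold higher at week 12. The 3 saline arrays lay within 152 to 159, and the TNBS pools of weeks 6, 8 and 12 lay outside that range. The week 6 log2 difference was 0.93 and that of week 8 was -0.75 on the log2(value + 50) scale. With equal array medians the week 8 difference was -0.94 and with a floor of 100 it was -0.605, all under 2-fold.

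Lamb3, its partner chain, was named after its values were seen. It read 428 and 451 in week 6 saline, 518 in both week 6 TNBS and later saline, and 335, 761 and 723 at weeks 8, 10 and 12. Like Lama3, it was lowest at week 8, at 1.55-fold below later saline, and was 1.47-fold and 1.40-fold higher at weeks 10 and 12. A second Lamb3 probe set gave log2 differences of 0.26, -0.57, 0.77 and 0.41, in the order of the weeks, beside 0.24, -0.63, 0.55 and 0.48 on the first.

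The remaining laminin chains had lower signals in several of the later TNBS pools. Lama4, an alpha chain of vessel basement membranes named after its values were seen, was among them, with log2 differences of -0.32, -0.29 and -0.45 at weeks 8, 10 and 12 beside 0.27 at week 6. Lamc1, the gamma 1 chain shared by most laminins, read 179.6 and 97.6 in week 6 saline, 133 in week 6 TNBS, 124 in later saline and 99.1, 124 and 30.6 at weeks 8, 10 and 12. It was at least 2.47-fold lower at week 12, where its signal lay under the floor, although both week 6 saline arrays differed by -0.88 on the log2 scale and a second probe set stayed under 50 on all arrays. With a floor of 100 the week 12 difference was -0.31. Lamb1, the beta 1 chain, read 88.5 and 77.7, then 105, and 90.5, 70.8, 73.8 and 50.6 in later saline and at weeks 8, 10 and 12, which made it 1.79-fold lower at week 12. Lama5, the main alpha chain of adult epithelial basement membranes, read 122 and 93.6, then 113, and 88.0, 54.1, 70.2 and 65.9, and was 1.63-fold lower at week 8. Signals this near the floor limit both: with a floor of 100 the Lamb1 difference at week 12 and the Lama5 difference at week 8 were 0.

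As a family, the laminins were 6 of 6 above 0 at week 6 and 6 of 6 below 0 at week 8, where 56.5% of all genes lay below 0. Without the second week 6 saline array, 4 of 6 were above 0 at week 6, and with equal array medians 4 of 5. The week 8 direction held in 6 of 6 with quantile normalization and against either saline pool, and in 5 of 5 with equal medians. With a floor of 100, 4 of 6 lay below 0 and 2 at 0, and the median went from -0.49 to -0.31. Lamb1 is among the 6 at week 6, where the filter set its direction. At least 1.5-fold lower at week 8 were Lama3, Lama5 and Lamb3. With equal array medians Lama5 and Lamb3 were at -0.53 and -0.45 on the log2 scale, under 1.5-fold, and against week 6 saline Lamb3 was at -0.39.

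**Figure D3:**
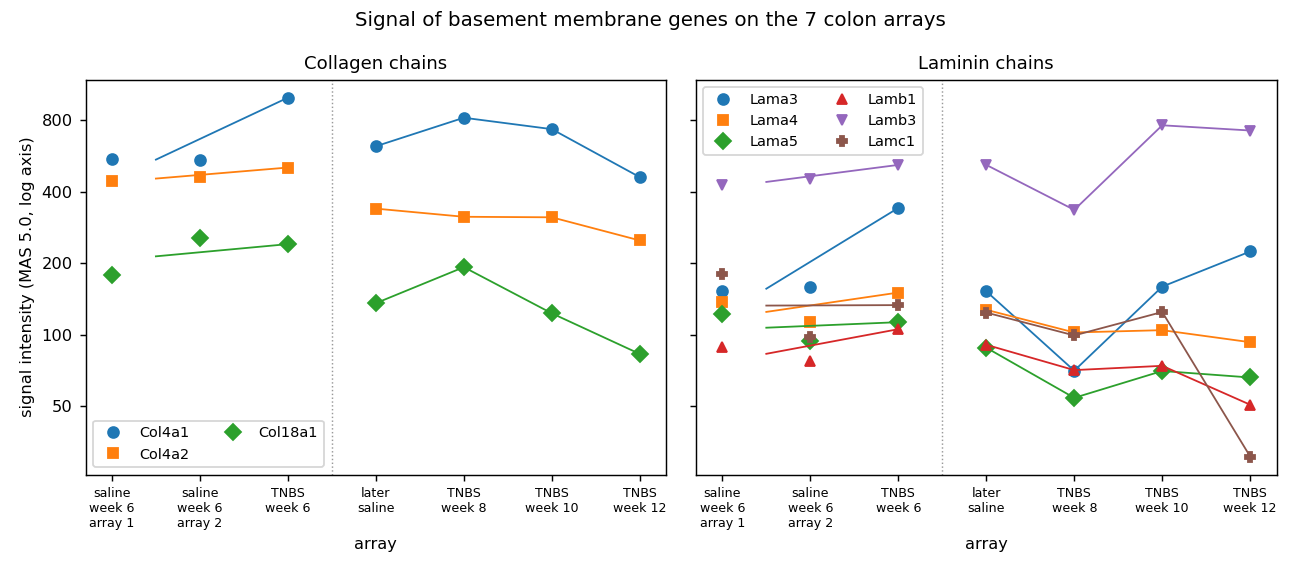
Signal intensity (log axis) on each of the 7 arrays for basement membrane collagen chains (left) and laminin chains (right), drawn in the same way as the fibrillar collagens. Col4a1 reaches 995 in week 6 TNBS while Col4a2 stays at 505, and Lama3 and Lamb3 are lowest at week 8, with 70.4 and 335.

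The elastic fibre and microfibril genes did not share a direction at week 6. Fibulin 1 (Fbln1), a glycoprotein of elastic fibres and basement membranes, read 516 and 548 in week 6 saline and 318 in week 6 TNBS. It read 376 in later saline and 293, 461 and 392 at weeks 8, 10 and 12, so the TNBS pools of weeks 6 and 8 lay below all saline arrays. It was 1.67-fold lower at week 6, with log2 differences of -0.90 and -0.26 on 2 other probe sets beside -0.74. Against the later saline pool the week 6 log2 difference was -0.24.

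Elastin (Eln), the core of elastic fibres, read 358.5 and 375 in week 6 saline and 448 in week 6 TNBS, 249 in later saline and 193, 248 and 218 at weeks 8, 10 and 12. Its differences stayed under 1.5-fold at all 4 weeks. Fibulin 2 (Fbln2) read 188 and 191 in week 6 saline, 216 in week 6 TNBS, 147.5 in later saline and 141, 116 and 179 at weeks 8, 10 and 12, also within 1.5-fold throughout. All 3 genes of this class were lower in later than in week 6 saline (median -0.50).

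Among the other collagens the 3 type VI chains, which form beaded filaments around cells, differed from each other at week 6. Col6a3 read 326 and 283 in week 6 saline and 491 in week 6 TNBS, then 336 in later saline and 342, 341 and 277 at weeks 8, 10 and 12. It was 1.62-fold higher at week 6 and within 1.21-fold at the later weeks. Against the later saline pool its week 6 log2 difference was 0.55, under 1.5-fold. Col6a1 read 699.5 and 643.5 in week 6 saline but 499 in week 6 TNBS, 1.34-fold lower, and a dimmer probe set gave -0.42 beside -0.43 on the log2 scale. At weeks 8, 10 and 12 that probe set gave 0.65, 0.48 and 0.18, beside 0.06, 0.28 and -0.40 on the brighter, so the sign differed at week 12. Col6a1 read 474 in later saline and 493, 575 and 358 at weeks 8, 10 and 12. Col6a2 read 348 and 292 in week 6 saline, 310.4 in week 6 TNBS, 199.9 in later saline and 235, 261 and 178 afterwards, and stayed within 1.31-fold of matched saline.

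Col8a1, Col9a2 and Col9a3 read between 64.3 and 109.7 on all arrays. Col9a2, a chain of a fibril-associated collagen, read 91.1 and 98.5 in week 6 saline, 98.5 in week 6 TNBS, 109.7 in later saline and 64.3, 89.3 and 74.8 at weeks 8, 10 and 12. It was 1.71-fold lower at week 8 (64.3 against 109.7), but its log2 difference was -0.13 with a floor of 100. Col9a3, of the same trimer, read 95.3 and 96.0, then 103, and 70.6, 67.3, 72.6 and 69.0. Col8a1, a network-forming collagen of vessel walls, read 80.8 and 98.3, then 90.8, and 104, 85, 73.3 and 76.8, and was at most 1.42-fold lower, at week 10.

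**Figure D4:**
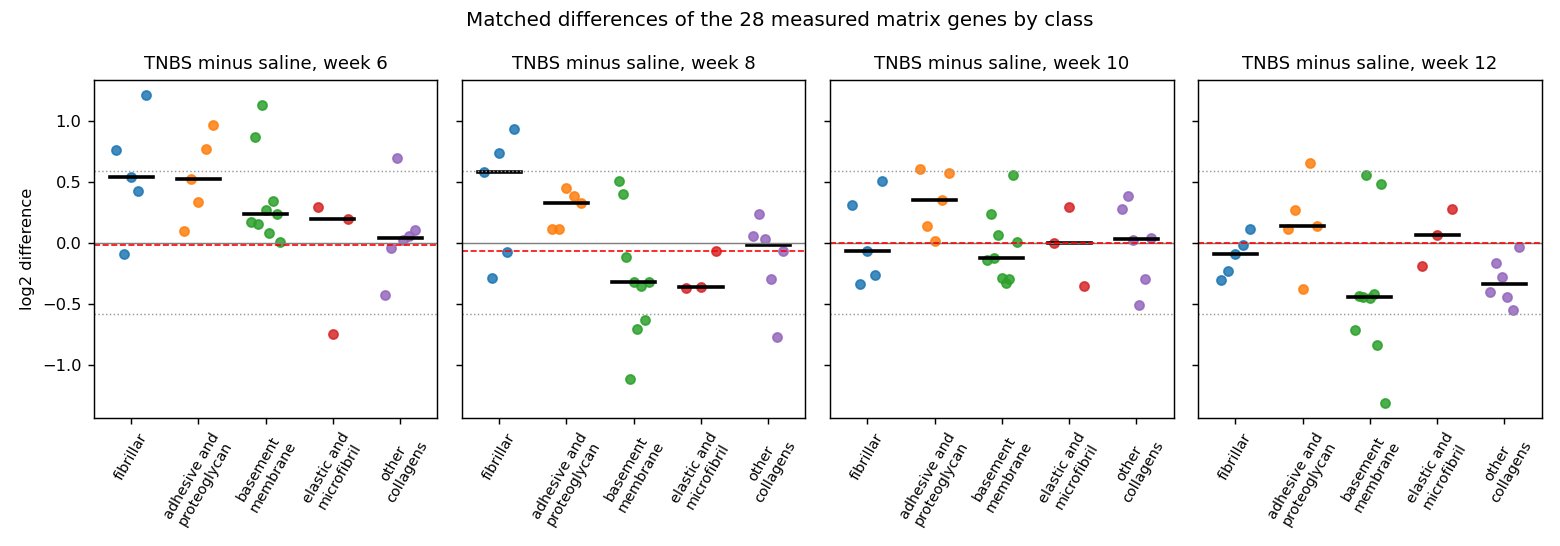
Log2 difference between TNBS and matched saline pools (vertical axis) for each of the 28 members, by class, in 1 panel per week. Points are genes, black bars class medians, dotted lines 1.5-fold and the red dashed line the median of all 4314 genes; the fibrillar median is 0.54 and 0.58 at weeks 6 and 8 and -0.07 and -0.09 at weeks 10 and 12, and the basement membrane median goes from 0.24 to -0.32, -0.12 and -0.45.

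The second comparison addresses 2 weeks after the enemas, and here the class medians had opposite signs, a difference that was not tested. The fibrillar median was 0.58 (range -0.29 to 0.93, 2 of 5 below 0), with Col5a2 and Col3a1 at least 1.5-fold higher, where 6.54% of all genes were. The basement membrane median was -0.32, with Col4a1 at 0.40 and Col18a1 at 0.50 above 0, so the classes overlapped. At least 1.5-fold lower were 4 of 28 members (Lama3, Col9a2, Lama5 and Lamb3), where 9.76% of genes were. Col9a2 and Col8a1 reached 100 only in the later saline pool, so the filter set their direction here. Lama3 was the 1 member past 2-fold, on the lower side (1.74% of genes; 1.53% were 2-fold higher). Over all 28 members 13 lay above 0, against 42.8% of genes. Over all 28 members the median was -0.07, the same as that of all genes, and it was 0.16 with equal array medians, which shift every gene by 0.18 at week 8 and by 0.14 at week 10. Under it 5 members were at least 1.5-fold higher and 2 lower at week 8. The class medians were 0.76 and -0.14 under that scaling. Against the week 6 saline pool the fibrillar median was 0.11.

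At 4 weeks (week 10) 27 of 28 members lay within 1.5-fold of later saline, with a median of 0.02. Bgn was the exception on the higher side, where 4.89% of all genes were, and no member was at least 1.5-fold lower, where 6.28% of genes were. Above 0 were 16 of 28, against 48.9% of genes, and none was 2-fold higher (0.834%) or lower (0.649%). At 6 weeks (week 12) 19 of 28 members lay below 0, with a median of -0.21 against 0 for all genes, and of -0.07 with a floor of 100. Of 14 collagens, 13 lay below 0 (49.7% of all genes did, and 49.8% lay above), and with equal array medians 11 of 13 did. Col8a1 and Col9a2 reached 100 only in the later saline pool, so the filter set their direction at weeks 10 and 12. Both are counted among the 13 of 14 and the 19 of 28. Of the 24 members that averaged at least 100 in saline, 15 lay below 0 at week 12, with a median of -0.18. Lum alone was at least 1.5-fold higher (4.82% of all genes) and Lamc1, Lamb1 and Col18a1 at least 1.5-fold lower (5.38%). Past 2-fold was Lamc1, lower (0.881% of genes), and no member was higher by as much (0.719%). The later TNBS pools share 1 saline pool, so an error in that pool enters all 3 comparisons.

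The saline pools differed from each other in these genes. The later saline pool was below the week 6 saline pool in 20 of 28 members, with a median of -0.25, while 48.1% of all genes were lower and the median of all genes was 0.01. Bgn, Col6a2 and Col18a1 were at least 1.5-fold lower in it, where 5.03% of genes were. Set against the later saline pool, the week 6 TNBS pool had a median of 0.56 (-0.02 for all genes) and 12 members at least 1.5-fold higher (8.46% of genes). Set against the week 6 saline pool, the week 12 TNBS pool had a median of -0.43 (0.02 for all genes) and 12 members at least 1.5-fold lower (8.92% of genes). Age, time of handling and hybridisation cannot be told apart from the control set.

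**Figure D5:**
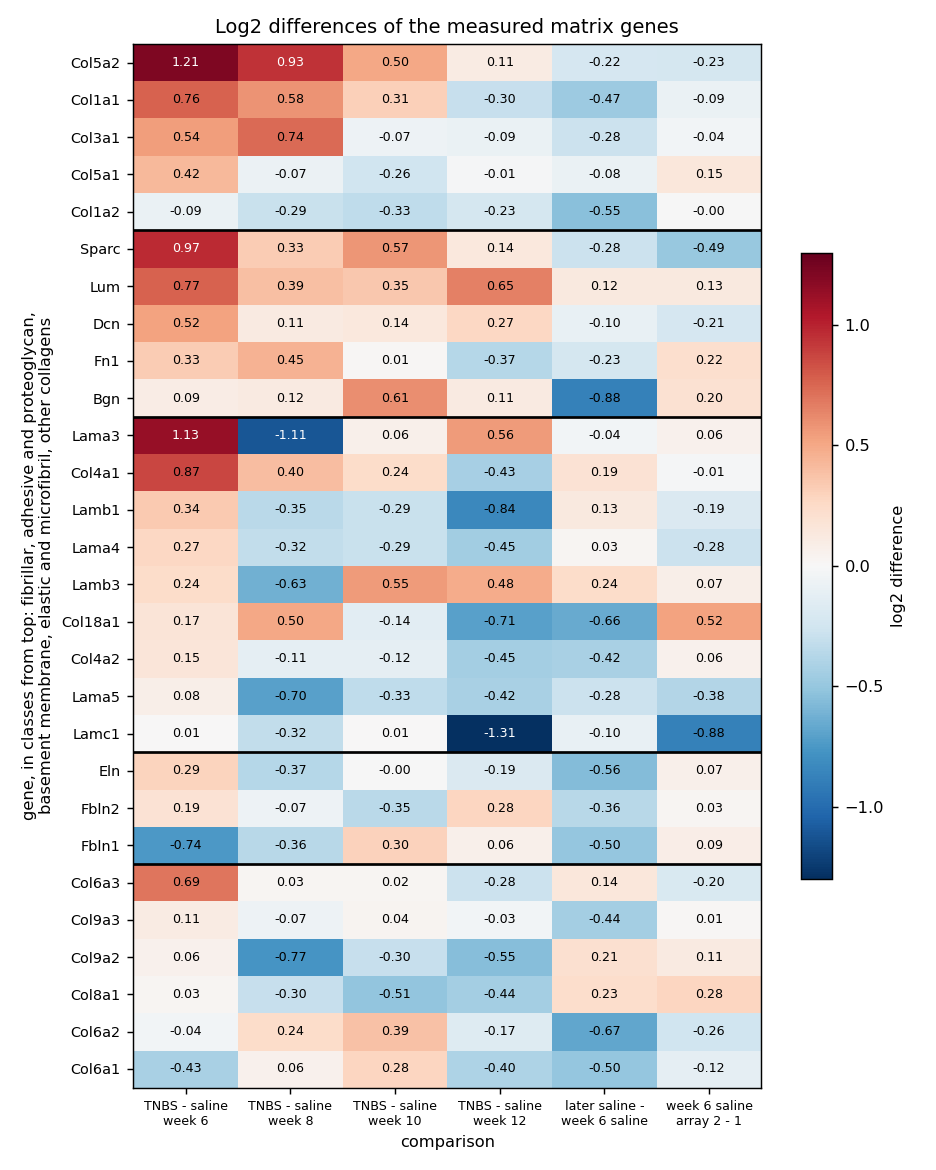
Log2 differences of the 28 members (vertical axis, grouped by class) in the 4 matched comparisons, between the saline pools, and between the repeat arrays of week 6 saline (horizontal axis). Red is higher and blue lower, with the value printed in each cell; 20 of 28 members are blue between the saline pools, with Bgn at -0.88.

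The pools were then fitted together. In limma's model of the 4 TNBS pools against 2 of saline, adjusted for which control set a pool belongs to, none of 4314 genes and none of 28 members had an adjusted p under 0.05 (0% of genes). At an unadjusted p under 0.05 there were 219 genes, 5.08%, and 3 of 28 members: Lum (log2 effect 0.58, SE 0.17, adjusted p = 0.886), Col5a2 (0.79, SE 0.26, adjusted p = 0.886) and Sparc (0.59, SE 0.21, adjusted p = 0.886). All 3 were higher in all 4 comparisons. Without the week 6 TNBS pool no member had an unadjusted p under 0.05. This model takes the 4 time points as replicates of each other, so change over time enters its error.

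The term for the week 6 difference minus the mean later difference also called 0 genes and 0 members in limma, with 80 genes (1.85%) and 0 members at an unadjusted p under 0.05. Its estimate lay above 0 in 24 of 28 members, with a median of 0.41 against 0.0055 for all genes. The share of all genes above 0 for this term is not given here. Lamb1 and Col9a3 passed the filter only through the week 6 TNBS pool, and Col9a2 and Col8a1 only through the later saline pool. The filter thus favoured a positive estimate in these genes (0.84, 0.13, 0.60 and 0.44, in that order). The member with the smallest p was Col6a3 (0.77, SE 0.37, adjusted p = 0.999 in limma).

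Genes that make, modify and bind the matrix were read from 3 lists chosen by function. Of the collagen folding, modification and crosslinking list 10 of 18 genes on the array reached 100, and none of the 10 was 1.5-fold different at week 6 (median 0.05). None passed limma's pooled model. Sec31a, a coat protein of the vesicles that carry procollagen, was lower in all 4 comparisons (log2 -0.48, -0.27, -0.52 and -0.36). Plod3, a collagen lysyl hydroxylase, was higher in all 4, most at week 10 (0.79). However, the saline pools differed by -0.59, with 133.8 and 119.8 at week 6 and 84.1 later. The TNBS pools of weeks 8 and 12 read 115.5 and 108.9, below both week 6 saline arrays, and that of week 10 read 145. P4hb, the beta subunit of prolyl 4-hydroxylase, was 2.36-fold lower at week 12, although both week 6 saline arrays differed by -0.71 on the log2 scale, and P4ha2, a catalytic subunit, 1.51-fold lower.

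Of the other secreted matrix proteins 12 of 25 reached 100. At week 6, 1 of the 12 was higher and 4 were lower by 1.5-fold or more (median -0.11), beside 7.56% and 5.93% of all genes. The higher gene reached 100 only in the week 6 TNBS pool, so the filter set its direction. It also set that of Ntn1 and Ltbp3, among the lower, which reached 100 only in saline pools. None of the 12 passed the pooled model in limma. Sparcl1, a relative of Sparc, read 569 and 608 in week 6 saline and 315.5 in week 6 TNBS, 1.86-fold lower, against the 1.95-fold higher Sparc. Tnxb, a tenascin of collagen fibrils, was 1.90-fold lower at week 6, and Ntn1, a netrin, was at least 1.44-fold lower in all 4 comparisons. Ltbp3, which binds latent TGF-beta, was 1.52-fold lower at week 6. Against the later saline pool each of these week 6 differences was under 1.5-fold. Sparcl1 read 435.8 there, Tnxb 100.6, Ntn1 113.6 and Ltbp3 84.7, against 315.5, 78, 80.7 and 79.6 in week 6 TNBS. Ntn1 reached 100 only in the saline pools, so the filter set its direction in all 4 comparisons. Ltbp3 did so only in the week 6 saline pool, which set its direction at week 6.

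Of the matrix receptors 13 of 19 reached 100. At week 6, 1 of the 13 was higher and 1 lower by 1.5-fold or more (median -0.02), beside 7.56% and 5.93% of all genes. None passed limma's pooled model. Itgav, the alpha V integrin that binds fibronectin and vitronectin, read 782 and 848 in week 6 saline and 1278 in week 6 TNBS, 1.57-fold higher. Itga6, an alpha chain of laminin receptors, was higher in all 4 comparisons, by 1.64-fold at week 8. Dag1, the laminin receptor dystroglycan, was lower in all 4, by 1.35-fold to 1.48-fold, and Itga7, a laminin receptor of muscle, was 1.56-fold lower at week 6.

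Markers of several cell types also differed between the pools. At week 6, 6 of 7 macrophage markers that reached 100 were at least 1.5-fold higher, as 7.56% of all genes were. The summed signal of the 11 on the array was 6472 against 3022 and 3580 in week 6 saline. The later arrays lay between 3123 in saline and 4156 in the week 10 TNBS pool. The 10 fibroblast markers on the array summed to 969.8 in week 6 TNBS and 862 and 907 in week 6 saline, and to 772 to 837 on the later arrays. Of these, 4 reached 100 and 5 lay under 50 on all arrays. S100a4, which macrophages also make, was 1.80-fold higher at week 6 and Pdgfra 1.03-fold. Among the pools, S100a4 reached 100 only with TNBS, so the filter set its direction at week 6. Its week 6 saline arrays read 103.7 and 69.2, a log2 difference of -0.58. The 8 smooth muscle markers summed to 13035 in week 6 TNBS against 14532 and 14895, and to 18077, 15470 and 11822 at weeks 8, 10 and 12 against 15564 in later saline. The smooth muscle sum was thus highest at week 8, where the fibrillar median was 0.58. The colon epithelium sum was highest there too, and the week 8 array had the lowest median signal (51.8). At week 6, where the fibrillar median was 0.54, the sum lay below both saline arrays. Of the 8 markers, Myh11, Myl9 and Smtn were lower at week 8 (log2 -0.23, -0.30 and -0.40). The others ranged from Cnn1, nearly unchanged at 0.003, to Tagln at 0.47. The 14 colon epithelium markers summed to 28916 in week 6 TNBS against 32503 and 30708, and to 41296, 29467 and 26729 at weeks 8, 10 and 12 against 34414. At week 6, 3 of the 13 that reached 100 were at least 1.5-fold lower, as 5.93% of all genes were. The 10 endothelial markers, of which 1 reached 100, summed to 840.3 against 732 and 733 at week 6. The 8 pancreatic markers summed to 6525 in week 6 TNBS and 8902 in week 8 TNBS, and to 1963 to 2499 on the other 5 arrays. Cela1 alone made up most of the sum on those 5. It read 1235 to 2209 over all arrays, with log2 differences of 0.13 and 0.56 at weeks 6 and 8. Adipose markers, of which 2 of 7 reached 100, summed to 442 and 521 in week 6 saline and 476 in week 6 TNBS. Their sums were 652 in later saline and 634, 434 and 270.8 at weeks 8, 10 and 12. Of 7 glial and neuronal markers 3 reached 100. These 7 summed to 562 and 542 in week 6 saline and 390 in week 6 TNBS. Later they summed to 432 in saline and 350, 360 and 304.9 at weeks 8, 10 and 12, so all TNBS pools lay below all saline arrays. The part of these cells in the matrix differences was not tested.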

How the data were processed

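The authors deposited 1 signal intensity per probe set for 7 arrays, made with Affymetrix Microarray Suite 5.0 and scaled to a target of 150, per the labels. RNA was extracted with TRIzol and pooled over the mice of a group before labelling. Of 12488 probe sets, 10833 carry 1 gene symbol in the platform annotation, 396 several and 1193 none, and only the first were used, so each gene was read by its probe set with the highest mean log2 signal.

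Signals under 50 were set to 50 before the log2 transform, and both week 6 saline arrays were averaged. The 4314 genes with at least 100 in some pool were compared, as fold and log2 difference from the matched saline pool. There was 1 pool per group, so p-values came only from limma 3.58.1 in R 4.3.3 with Benjamini-Hochberg adjustment: a pooled model over 6 pools, and a week 6 against later interaction. Both measure spread between pools of different times. The number of arrays limits the precision. The model code was tested on simulated data.

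The members, lists and marker genes were chosen with earlier results of these data known. Values on every array were given for up to 6 members per class with the largest absolute matched difference, and up to 4 genes per pathway list with the largest absolute pooled effect were named; members described outside this rule are said to be. Alternatives covered the floor, the log scale, the filter, the choice of probe set, the scaling, the control pool, the model and each array left out.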

Additional observations from a re-analysis of the deposited data

Results flagged for a closer look

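The basement membrane genes had a median log2 difference of 0.24 between TNBS and saline at week 6, and medians of -0.32, -0.12 and -0.45 at weeks 8, 10 and 12. The signs at week 6 and later are opposite, but the difference was not tested for the class, and the later values moved with the settings: with equal array medians weeks 8 and 10 were at -0.14 and 0.08, and with a floor of 100 at -0.11 and 0. The 3 later values share 1 saline pool.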

How the results depend on the processing

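Medians of the members are on the log2 scale and given for weeks 6, 8, 10 and 12, against 0.25, -0.07, 0.02 and -0.21 as reported, and counts are of members at least 1.5-fold higher or lower. A median was taken as moved when it shifted by more than 0.00044, the SD of the members' week 6 median over both saline arrays, which rests on 2 arrays, so nearly every alternative moved it. No alternative ended the 1.5-fold difference of Col5a2, Lama3, Sparc, Col4a1, Lum or Col1a1 at week 6, or of Col5a2 and Lama3 at week 8. With the other saline pool the medians were 0.56, -0.34, -0.22 and -0.43, with 12 higher and 0 lower at week 6, 4 lower at week 10, and 2 higher and 12 lower at week 12, and Bgn at week 10 turned to -0.28. With the mean of both saline pools they were 0.41, -0.22, -0.0715 and -0.33, with 0 lower at week 6, 1 lower at week 10, and 2 higher and 5 lower at week 12. Equal array medians gave 0.23, 0.16, 0.15 and -0.15, with 5 higher and 2 lower at week 8, and 4 and 2 higher at weeks 10 and 12. Quantile normalization gave 0.29, -0.021, -0.0165 and -0.26, with 0 higher at week 10. A floor of 100 gave 0.22, 0, 0.0101 and -0.074, with 2 lower at week 8 and 0 at week 12. With log2(value + 50) in place of a floor they were 0.21, -0.045, 0.015 and -0.18, with 1 lower at week 8, 0 higher at weeks 10 and 12, and 1 lower at week 12. The mean of all probe sets gave 0.33, 0.029, 0.065 and -0.17, with 0 lower at weeks 6 and 12. A filter on the mean over pools gave 0.29, 0.0585, 0.065 and -0.17, with 2 lower at week 8. Without a filter they were 0.027, 0, 0 and 0. Leaving out 1 week 6 saline array gave 0.25 to 0.26 at week 6, -0.0686 to -0.0681 at week 8, 0.0121 to 0.0174 at week 10 and -0.21 to -0.19 at week 12, through the genes that passed. The interaction called 2 members with a floor of 100 and 4 without a filter, both settings in which many values sit at the floor with no spread. The share of all genes called in these settings is not given here, so neither count is read as a result about the members. Signals near the floor limit Lamb1, Lama5, Lamc1, Col9a2 and Col8a1. No paired analysis was possible because each group was a single pool of RNA.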
